A study of Rattus norvegicus with 6 samples.

Results

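The genes described here are 40 genes of mitosis and the spindle: the kinases and cyclins that start mitosis, the kinetochore and its checkpoint, the kinesins and other spindle proteins, condensin, and the proteins that end mitosis and divide the cell. They were chosen by symbol, and 39 of the 40 had a row under their symbol among the 26981 features of the count table. The loaded group (3 libraries) held the right knee articular cartilage of wild-type male Sprague-Dawley rats whose right hind limb was compressed axially at knee and ankle, with the rat anaesthetised, every 2 days over 4 weeks. By the study design a session was 40 cycles of 10 s, holding 5 N for 9 s and reaching a peak of 20 N for 0.5 s. The control group (3 libraries) held the same tissue from wild-type male Sprague-Dawley rats of the blank group, for which neither the design nor the labels give a load. All rats were 6 weeks old when the study began, and the RNA was total RNA made into mRNA libraries. Whether each library came from its own rat is not stated, and the p-values therefore reflect variation among these libraries that could be technical.

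A cell enters mitosis when the kinase Cdk1, bound to cyclin B, is switched on. Chromosomes are then compacted by condensin, attached through their kinetochores to a spindle of microtubules, and held back by the spindle checkpoint until every chromosome is attached. The anaphase-promoting complex then marks cyclin B and securin for destruction, separase cuts the links between sister chromatids, and the midzone of the spindle guides the cut between the daughter cells. Most of these genes are transcribed only in dividing cells, and in a young rat dividing cells are found in marrow as well as in the growth plate, so in a bulk sample their level follows the share of dividing cells. In bulk RNA, fewer dividing cells and less of each RNA per cell cannot be told apart.

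Library totals were 28435307 to 33616096 counts in the loaded group and 34527264 to 40332904 counts in the control group. The tissue label is only partly borne out by the markers. The 15 chondrocyte markers summed to 2832 to 2963 CPM (counts scaled to a common library size) in loaded and 1977 to 2067 CPM in control libraries. The 14 erythroblast and red cell markers, by contrast, summed to 53410 to 61930 CPM in loaded and 61460 to 72650 CPM in control libraries, so marrow or blood RNA was in every library. Muscle RNA was too, as 9 skeletal muscle markers summed to 17650 to 18490 CPM in loaded and 7411 to 7537 CPM in control libraries. No library stood apart from its group, as pairs of loaded libraries correlated at 0.972 to 0.977 in log2 CPM and pairs of control libraries at 0.985 to 0.988, against 0.955 to 0.959 across the groups.

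Mitotic genes share a promoter layout, and the start regions of 4 members are printed because they show it for the member that rose and for members that fell. The layout pairs CCAAT boxes, bound by the factor NF-Y, with the cell cycle homology region, whose core is TTTGAA and which binds the complexes that keep these genes silent in resting cells and active before mitosis. Both motifs were searched on either strand from 250 bases before to 50 bases after the start, in RefSeq windows of build GRCr8, and 34 of the 39 members were matched there by symbol. Ccna2, Tpx2, Aurkb, Incenp and Ube2c were not among them. Capitals mark the motifs, written ATTGG and TTCAAA where they lie on the other strand, and each line runs 5′ to 3′ on the gene's strand.
Smc4 (chr2:155550012-155550311, plus strand): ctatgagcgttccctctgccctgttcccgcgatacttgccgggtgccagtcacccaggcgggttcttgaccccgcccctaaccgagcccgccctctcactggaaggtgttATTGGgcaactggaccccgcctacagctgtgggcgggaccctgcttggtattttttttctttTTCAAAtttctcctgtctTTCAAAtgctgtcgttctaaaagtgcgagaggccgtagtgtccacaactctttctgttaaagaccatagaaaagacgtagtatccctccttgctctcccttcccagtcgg
Top2a (chr10:84473044-84473343, minus strand): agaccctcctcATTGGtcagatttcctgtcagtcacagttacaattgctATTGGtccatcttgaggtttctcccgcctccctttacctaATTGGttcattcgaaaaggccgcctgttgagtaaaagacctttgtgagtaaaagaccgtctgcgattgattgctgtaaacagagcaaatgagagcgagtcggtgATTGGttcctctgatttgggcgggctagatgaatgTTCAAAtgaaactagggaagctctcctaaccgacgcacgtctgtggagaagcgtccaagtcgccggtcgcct
Plk1 (chr1:186147408-186147707, plus strand): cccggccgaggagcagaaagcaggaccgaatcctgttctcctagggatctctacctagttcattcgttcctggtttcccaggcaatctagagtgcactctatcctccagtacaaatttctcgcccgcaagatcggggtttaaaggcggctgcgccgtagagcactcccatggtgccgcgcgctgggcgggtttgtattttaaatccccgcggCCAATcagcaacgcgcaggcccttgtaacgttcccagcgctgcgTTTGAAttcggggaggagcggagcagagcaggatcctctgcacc
Cdk1 (chr20:19265043-19265342, plus strand): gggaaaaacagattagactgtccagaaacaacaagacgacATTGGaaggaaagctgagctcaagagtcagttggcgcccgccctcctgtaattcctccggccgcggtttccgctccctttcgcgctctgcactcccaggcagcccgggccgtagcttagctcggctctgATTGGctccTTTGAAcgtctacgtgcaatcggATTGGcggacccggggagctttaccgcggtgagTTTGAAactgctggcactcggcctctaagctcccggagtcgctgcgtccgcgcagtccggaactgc

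Of the 34 members, 26 (76.5%) held a CCAAT box and 24 (70.6%) held TTTGAA, against 39.6% and 19.4% of the 27457 genes in the same table. The pair occurred in 20 members (58.8%) and in 7.96% of all genes. Among the 17 matched members that were lower after loading 9 held both motifs (52.9%), and among the 16 that passed in neither direction 10 did (62.5%). Smc4, which was higher after loading, held a CCAAT box and 2 copies of TTTGAA, all on the other strand. In Mki67 and Cdca8 the motifs overlap by a shared base. A match is a run of letters and not a tested binding site.

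Loading was accompanied by lower transcript levels of most mitotic genes, with called falls of 0.18 to 0.62 on the log2 scale, and by a higher level of 1 of them. In edgeR's quasi-likelihood test, adjusted over 16447 genes, 21 of the 39 members were called lower and 1, Smc4, was called higher at an adjusted p under 0.05, whereas 17 were not called. Among all genes tested 18.0% were called lower and 17.9% higher (35.8% in all), so the members were called lower at 53.8% and higher at 2.56%. The members' median log2 fold change, loaded over control, was -0.21, beside 0.00 for all genes tested. All 3 loaded libraries lay below all 3 control libraries for 21 members, the 21 that were called lower, where 23.9% of all genes did so. For 4 members (Smc4, Ttk, Ndc80 and Bub1) the loaded libraries all lay above, as for 23.9% of all genes. In the authors' deposited table, at a false discovery rate under 0.05, 20 members were lower and 1 higher, against 20.2% and 20.6% of the 14105 genes with a value there, and the member called only here was Kif23.

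Added up, the members took 2888, 2821 and 2804 CPM in the loaded libraries, against 3238, 3279 and 3211 CPM in the control libraries, a ratio of group means of 0.875. Without Smc4 the ratio was 0.845. The sum of every loaded library lay below that of every control library. Within the groups, each loaded library was the lowest for 11 to 15 members, and each control library was the highest for 8 to 19. These ranks compare libraries of a group only, so they do not bear on the difference between the groups. Which of the smaller changes were called depended on scaling. When libraries were scaled by their totals in place of TMM, 18 members were lower and 5 higher, with 12.6% and 21.8% of all genes, and Ttk, Ndc80, Cenpf and Smc2 joined Smc4 among the higher.

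**Figure D1:**
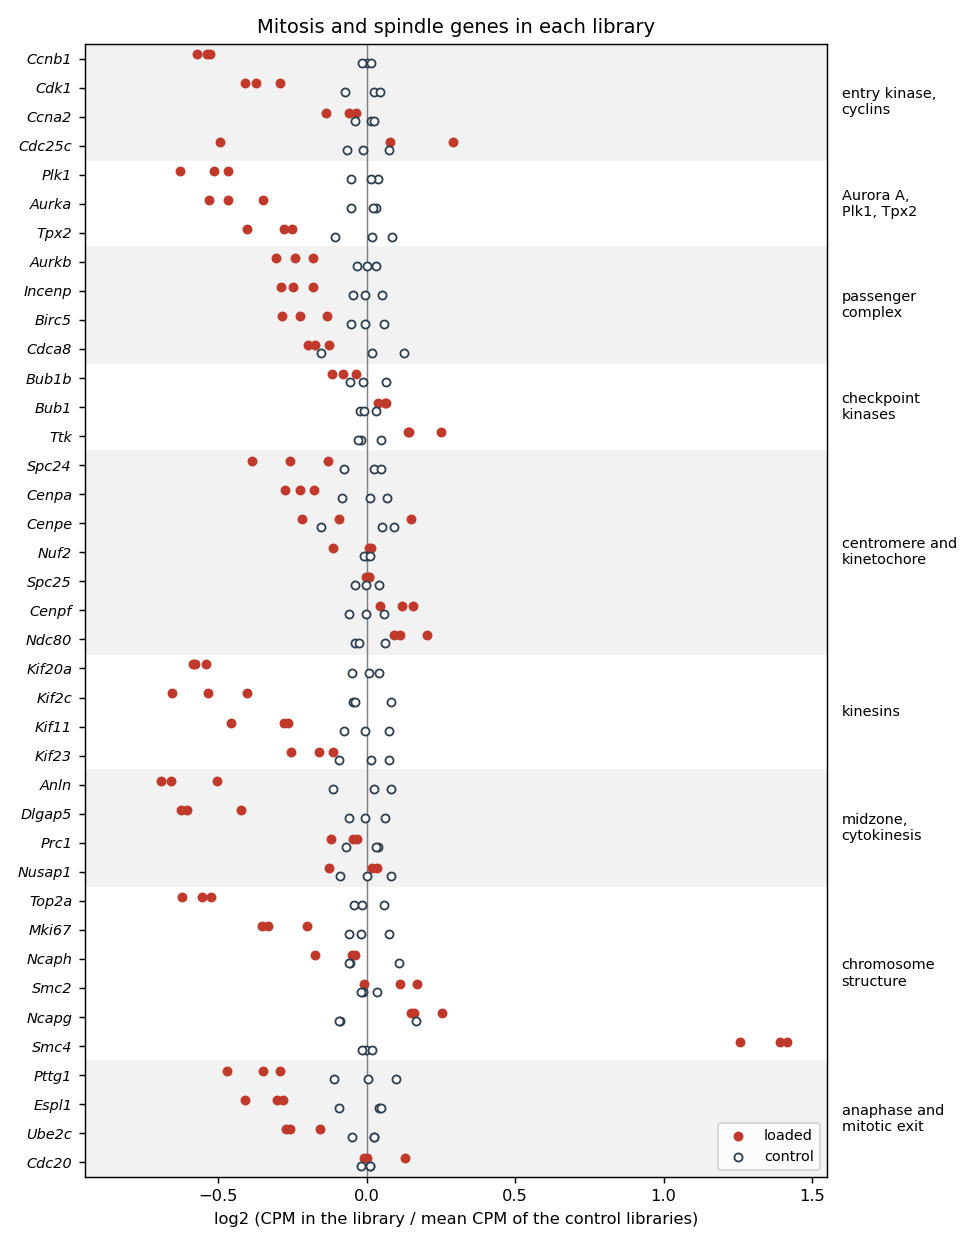
Each row is a member, grouped by role, and each point is a library, plotted as the log2 ratio of its CPM to the mean CPM of the control libraries (filled points loaded, open points control). The loaded points of Kif20a, Ccnb1 and Top2a lie about 0.5 or more below 0, those of Spc25 lie among the control points, and those of Smc4 lie above 1.

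Markers of neutrophil precursors, which divide in marrow, moved in the same direction as most members. The 10 neutrophil precursor markers summed to 10140 to 10750 CPM in loaded and 13260 to 13810 CPM in control libraries, and of the 9 tested (Ltf was under 1 CPM in all libraries) 8 were lower and none higher. Of the 14 erythroblast and red cell markers 7 were lower and 1 higher. Of the 7 markers of stem and early progenitor cells 2 were lower and 1 higher, shares of 28.6% and 14.3% beside 18.0% and 17.9% of all genes. Their sums of 342.6 to 347.1 CPM in loaded and 389.6 to 396.7 CPM in control libraries followed Spi1, at 225.6 CPM in loaded and 274.2 CPM in control libraries on average, while Gata2 was the one called higher. The 12 B cell progenitor markers went the other way, with 5 higher (41.7%) and 1 lower (8.33%). Their sums were 358.9 to 368.0 CPM in loaded and 291.6 to 294.8 CPM in control libraries. Of 6 megakaryocyte markers 5 were lower (83.3%) and none higher. In sum they stood at 446.2 to 469.8 CPM in loaded and 786.2 to 841.1 CPM in control libraries. Of 8 T and NK cell markers 2, Nkg7 and Cd8a, were lower (25.0%) and none higher. The sum over the 8 was 246.4 to 277.1 CPM in loaded and 415.9 to 435 CPM in control libraries. Most of it was Nkg7, at 213.7 CPM in loaded and 379 CPM in control libraries on average. Of 8 mature neutrophil markers 2 were lower (25.0%) and 3 higher (37.5%). These markers summed to 22850 to 29070 CPM in loaded and 34190 to 38230 CPM in control libraries. Most of that sum was S100a9, at 14370 CPM in loaded and 20090 CPM in control libraries on average. Its call as lower was lost without loaded 1 or control 1 (adjusted p = 0.0544 and 0.063, edgeR). Markers of skeletal muscle, a tissue outside the cartilage, were higher in 9 of 9 (17650 to 18490 CPM in loaded and 7411 to 7537 CPM in control libraries). Those of osteoblasts were higher in 7 of 9, with 1 lower (5859 to 6099 CPM in loaded and 3139 to 3179 CPM in control libraries). Chondrocyte markers were higher in 8 of 15, with 1 lower. No listed marker was at 0 in all 6 libraries. The part of these cell types in the members' levels was not tested. With the erythroblast and neutrophil markers and all haemoglobin genes left out of the table and its scaling, the counts of members called were again 21 lower and 1 higher. This omission bears on the scaling only. It takes no marrow RNA out of the members' own counts, so it cannot show what part marrow cells had in them.

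The switch into mitosis was lower in its kinase and in cyclin B. Ccnb1, the cyclin B that activates Cdk1, stood at 68.5, 68.2 and 66.5 CPM in loaded libraries, against 99.1, 99.97 and 97.8 CPM in control libraries. The groups did not overlap and the change was -0.55 ± 0.047 on the log2 scale (SE; adjusted p = 3.85e-07, edgeR), or 31.5% lower. Cdk1, the kinase itself, had 105, 108 and 114 CPM in loaded libraries, against 142, 132 and 144 CPM in control libraries. It was 21.9% lower (-0.36 ± 0.052, adjusted p = 7.26e-05, edgeR) and its groups did not overlap either. Ccna2, cyclin A, which acts from DNA synthesis into early mitosis, ranged from 96.1 to 103 CPM in loaded and from 103.0 to 108 CPM in control libraries, and its change of -0.08 ± 0.049 did not pass. Cdc25c, a phosphatase that switches Cdk1 on, was low and uneven, at 11.8, 13.7 and 7.95 CPM in loaded and 10.7, 11.8 and 11.1 CPM in control libraries. No call was made for it.

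The fortieth symbol, Ccnb2, encodes the second B-type cyclin and had no row of its own. The table's homology column assigns it to 2 features carrying the authors' new-gene names, and these are not counted among the members. The first stood at 33.4, 30.7 and 33.3 CPM in loaded and 42.3, 37.1 and 41.4 CPM in control libraries, a change of -0.31 ± 0.069 (adjusted p = 0.00241, edgeR). The other stood at 42.8, 36.1 and 40.0 CPM in loaded and 44.7, 46.1 and 45.0 CPM in control libraries, and its change of -0.19 ± 0.067 (adjusted p = 0.0364, edgeR) was lost in 9 of 15 alternatives (adjusted p = 0.0519 to 0.267 over the 9), among them the fits without loaded 2, loaded 3 or any 1 control library. How reads were shared between these features is not given in the sources used here.

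The spindle pole kinases among the members, Plk1 and Aurka, were both lower, as was Tpx2. Plk1, the Polo-like kinase that acts from mitotic entry to cytokinesis, had 59.5, 54.9 and 61.5 CPM in loaded libraries, against 87.2, 82.1 and 85.9 CPM in control libraries. This was a log2 change of -0.54 ± 0.056 (adjusted p = 2.7e-06, edgeR). Aurka, the Aurora A kinase of the spindle poles, had 68.2, 60.1 and 62.9 CPM in loaded libraries, against 88.8, 88.2 and 83.8 CPM in control libraries (-0.45 ± 0.057, adjusted p = 1.98e-05, edgeR). In each gene the highest loaded library lay below the lowest control library. Tpx2, which brings Aurora A to the spindle and activates it, fell by 0.31 ± 0.059 (adjusted p = 7.61e-04, edgeR). Outside the members the Polo-like kinase Plk4 was not called (0.12 ± 0.061, adjusted p = 0.132, edgeR). With library totals Plk4 passed as higher (adjusted p = 0.0336, edgeR).

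In the chromosomal passenger complex, which corrects faulty attachments and later moves to the midzone, 3 of 4 genes were lower, by smaller steps. Its kinase Aurkb (Aurora B) had 86.8, 90.6 and 83.2 CPM in loaded libraries, against 105, 103 and 100.3 CPM in control libraries. Its scaffold Incenp had 57.6, 60.4 and 56.0 CPM in loaded libraries, against 66.1, 70.9 and 68.1 CPM in control libraries. Aurkb was 15.4% lower (-0.24 ± 0.05, adjusted p = 0.00158, edgeR) and Incenp 15.2% lower (-0.24 ± 0.054, adjusted p = 0.00272, edgeR), with groups that did not overlap. Birc5 (survivin) fell by 0.21 ± 0.056 (adjusted p = 0.00794, edgeR) and was not called when library totals set the scale (adjusted p = 0.101). The fourth, Cdca8 (borealin), moved by -0.17 ± 0.064 and its groups overlapped (adjusted p = 0.0594, edgeR), with control 2, at 73.7 CPM, within the loaded range of 71.6 to 75.3 CPM. Cdca8 passed without that library (adjusted p = 0.00702) and, with all 6 libraries, when no filter was applied (adjusted p = 0.0331).

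The checkpoint kinases among the members, by contrast, gave no call in 3 tested. Ttk (Mps1), which starts the checkpoint at unattached kinetochores, had 31.7, 31.6 and 34.1 CPM in loaded libraries, against 28.3, 28.1 and 29.7 CPM in control libraries. The loaded values were all above the control values, and the change of 0.18 ± 0.069 had an adjusted p of 0.0579 (edgeR), which passed with upper-quartile scaling, with library totals and with a stricter filter (adjusted p = 0.0137 to 0.044). Bub1b (BubR1), part of the checkpoint complex that holds back anaphase, had 45.1, 47.8 and 46.3 CPM in loaded libraries, against 47.1, 48.5 and 51.2 CPM in control libraries, with groups that overlapped (-0.08 ± 0.057, adjusted p = 0.322, edgeR). Bub1, which places Bub1b and other proteins at the kinetochore, stood at 63.8 to 64.9 CPM in loaded and 61.1 to 63.5 CPM in control libraries (0.05 ± 0.049). Other checkpoint genes, outside the members and named after their values were seen, did move. Mad2l1 (-0.32 ± 0.057), Bub3 (-0.33 ± 0.057), Kntc1, Trip13 and Zw10 were called lower, and the call of Zw10 was lost in 8 of 15 alternatives. Knl1 was called higher, and Spdl1 and Zwilch were not called.

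Most centromere and kinetochore genes among the members were not called either. Of 7, 2 were lower and none higher. Cenpa, the histone H3 variant that marks the centromere, had 52.3, 55.9 and 54.2 CPM in loaded libraries, against 66.3, 59.7 and 63.7 CPM in control libraries (-0.23 ± 0.056, adjusted p = 0.00553, edgeR). Spc24 had 32.7, 39.1 and 35.8 CPM in loaded libraries, against 43.5, 44.2 and 40.5 CPM in control libraries (-0.25 ± 0.072, adjusted p = 0.0119, edgeR). The call of Spc24 was lost with library totals and without loaded 1, control 1 or control 2 (adjusted p = 0.0531 to 0.0611). Spc24 is a subunit of the Ndc80 complex, the rod that grips the microtubule, and the other subunits did not follow it: Spc25 moved by 0.01 ± 0.051, Nuf2 by -0.03 ± 0.052 and Ndc80 itself by 0.14 ± 0.059. Spc25 stood at 58.0, 57.6 and 58.0 CPM in loaded and 59.3, 56.1 and 57.6 CPM in control libraries. Cenpf, a large protein of the outer kinetochore, moved by 0.11 ± 0.055. Cenpe, a kinetochore motor, had 30.7 to 39.5 CPM in loaded and 32.1 to 38.0 CPM in control libraries, and its direction changed in some alternatives.

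The 4 members grouped as kinesins were all lower, while Cenpe, the kinetochore motor described above, is also a kinesin and was not called. Outside the members Kif4a, Kif18b, Kif22 and Kifc1 were called lower, Kif18a and Kif20b higher, and Kif14 and Kif15 in neither direction. Kif20a, which carries the passenger complex to the midzone, had 52.0, 53.7 and 52.3 CPM in loaded libraries, against 80.3, 78.4 and 75.5 CPM in control libraries. It fell by 0.57 ± 0.051 on the log2 scale (adjusted p = 5.5e-07, edgeR), or 32.6%. Kif2c (MCAK), which takes microtubules apart at centromeres, had 34.9, 29.3 and 31.8 CPM in loaded libraries, against 44.7, 48.9 and 44.9 CPM in control libraries (-0.53 ± 0.072, adjusted p = 4.21e-05, edgeR). In both genes the highest loaded library lay well below the lowest control library. Kif11 (Eg5), which pushes the spindle poles apart, fell by 0.33 ± 0.061 (adjusted p = 6.24e-04, edgeR). Kif23, a motor of the midzone, fell by 0.18 ± 0.062 (adjusted p = 0.0377, edgeR), but 8 of 15 alternatives did not call it, among them DESeq2, the replicate block and the fits without loaded 1, loaded 3, control 2 or control 3 (adjusted p = 0.0526 to 0.268 over the 8).

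**Figure D2:**
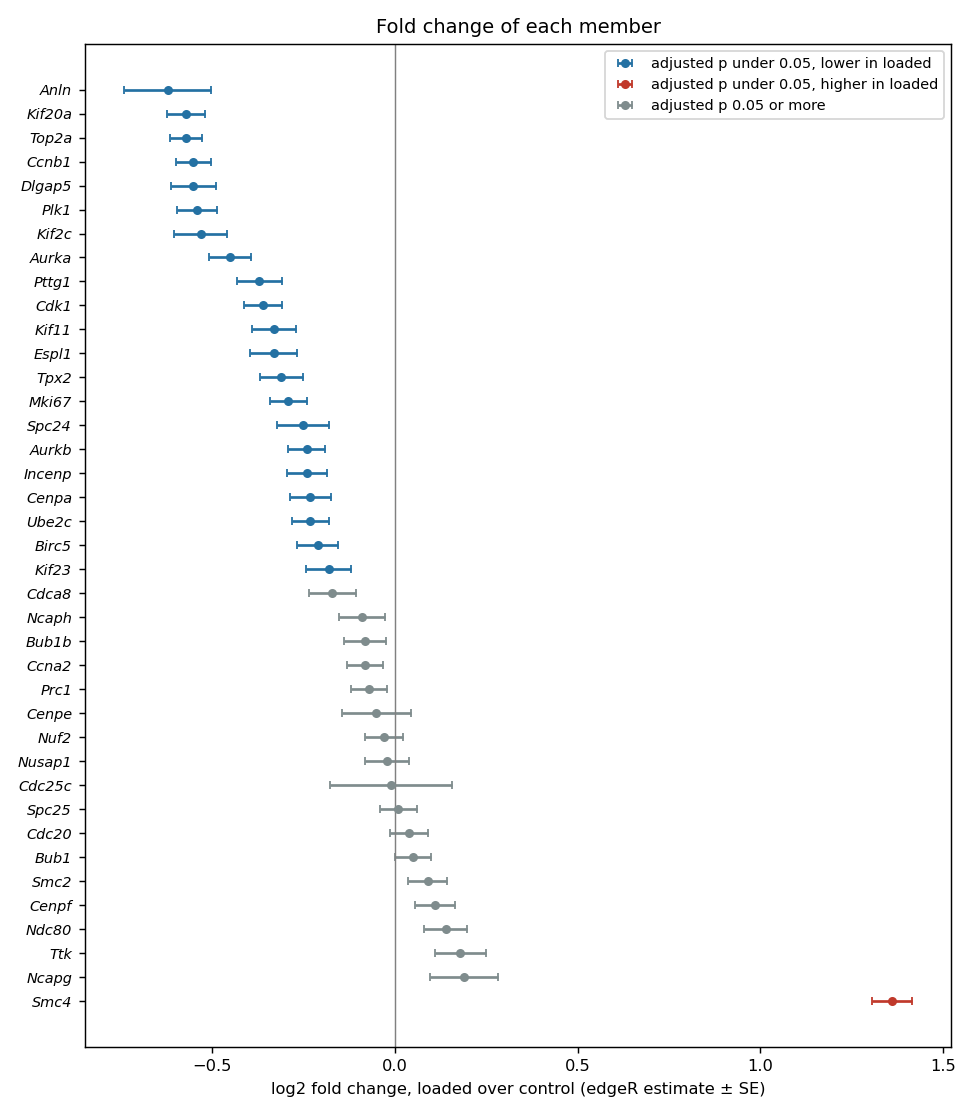
Members are ordered by log2 fold change, loaded over control, with bars for the SE of the edgeR estimate and colours for the call at an adjusted p under 0.05. Anln is lowest at -0.62, 17 uncalled members lie between -0.17 and 0.19, and Smc4 stands apart at 1.36.

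The 4 other members of the spindle, the midzone and cytokinesis split evenly, with 2 lower and 2 not called. Outside the members the cytokinesis genes Ect2, Racgap1 and Cit were called lower and Cep55 was not called. The call of Cit was lost without control 2. Anln (anillin), which organises the contractile ring, had the largest fall of any member, from a low level: 8.43, 7.399 and 7.57 CPM in loaded libraries, against 12.2, 12.7 and 11.05 CPM in control libraries. The change was -0.62 ± 0.119 (adjusted p = 8.69e-04, edgeR), with the widest error of the called members. Dlgap5 (HURP), which stabilises the microtubules that hold chromosomes, had 53.3, 54.1 and 61.4 CPM in loaded libraries, against 85.9, 79.0 and 82.0 CPM in control libraries (-0.55 ± 0.062, adjusted p = 6.11e-06, edgeR). Prc1, which bundles the midzone, and Nusap1, which binds microtubules near chromosomes, moved by -0.07 ± 0.05 and -0.02 ± 0.06 with overlapping groups.

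Genes of chromosome structure went in both directions. Top2a, the topoisomerase that untangles sister chromatids, had 215, 200.9 and 210.2 CPM in loaded libraries, against 299.8, 322 and 305 CPM in control libraries. It fell by 0.57 ± 0.044 (adjusted p = 1.2e-07, edgeR), or 32.5%, with no overlap between the groups. Mki67, the proliferation marker Ki-67, which coats mitotic chromosomes, had 248, 226 and 223 CPM in loaded libraries, against 273, 299.9 and 281 CPM in control libraries (-0.29 ± 0.05, adjusted p = 3.27e-04, edgeR). Its groups did not overlap, and its fall of 18.4% was smaller than that of Top2a.

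Smc4, the ATPase that pairs with Smc2 in the core of condensin, rose. Its levels were 149.7, 147 and 134 CPM in loaded libraries, against 56.0, 56.7 and 55.5 CPM in control libraries. Every loaded library was far above every control library. The log2 fold change was 1.36 ± 0.054 (adjusted p = 7.12e-11, edgeR), a 2.56-fold higher level, and it stayed called in all 15 alternatives with an adjusted p of at most 7.51e-08. The authors' deposited table gives it a log2 fold change of 1.36.

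The rest of condensin did not rise with it. Smc2, with which Smc4 forms the ring, stood at 125, 111 and 120.5 CPM in loaded and 114, 110.4 and 109.9 CPM in control libraries, a change of 0.09 ± 0.053 that did not pass with TMM scaling (adjusted p = 0.2) and passed with library totals (adjusted p = 0.042, edgeR). The condensin I subunits among the members, Ncapg and Ncaph, moved by 0.19 ± 0.093 and -0.09 ± 0.063 without a call, although Ncapg passed without control 2 (adjusted p = 0.0447). The condensin subunits outside the members were lower: Ncapd2 by -0.34 ± 0.088 in condensin I, and Ncapd3, Ncapg2 and Ncaph2 by -0.29 ± 0.06, -0.20 ± 0.06 and -0.33 ± 0.051 in condensin II. The calls of Ncapd2 and Ncapg2 were lost with library totals (adjusted p = 0.0773 and 0.162), and that of Ncapg2 also without control 2 or control 3. By the authors' FPKM, which allows levels of different genes to be compared per length, Smc4 averaged 32.9 ± 2.01 in loaded and 12.1 ± 0.391 in control libraries (SD, n = 3 each), and Smc2 averaged 21.5 ± 1.93 in loaded and 18.9 ± 0.438 in control libraries. Smc4 was thus above Smc2 in the loaded group and below it in the control group.

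**Figure D3:**
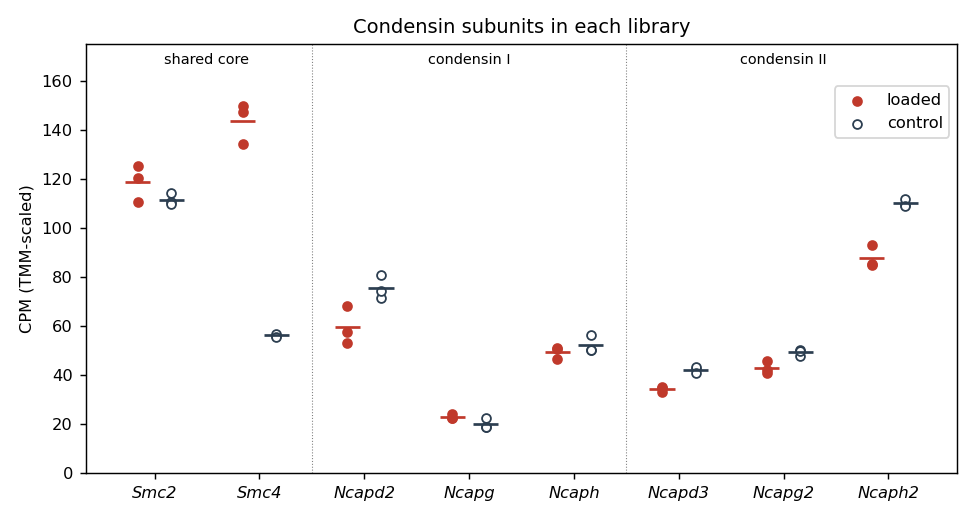
CPM of the 8 condensin subunits in each library (filled points loaded, open points control, bars group means), set out as the shared core, condensin I and condensin II. Smc4 is at 134 to 149.7 CPM in loaded and 55.5 to 56.7 CPM in control libraries, while each other subunit differs between the groups by far less.

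The genes beside Smc4 in the RefSeq gene table, looked at after its values were seen, are Trim59, a membrane protein of the TRIM family, and Ift80, a protein of cilium transport. Trim59 had 129, 124 and 123 CPM in loaded libraries, against 101, 104 and 96.6 CPM in control libraries (0.31 ± 0.049, adjusted p = 1.42e-04, edgeR). Ift80 had 30.5, 22.6 and 28.4 CPM in loaded libraries, against 24.3, 23.3 and 22.8 CPM in control libraries (0.21 ± 0.1, adjusted p = 0.117, edgeR), although leaving out loaded 2 brought it past the threshold (adjusted p = 0.0057). The strand setting of the counting is not given in the sources used here, so reads of overlapping transcripts on opposite strands cannot be told apart at this locus.

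Among the genes that end mitosis, 3 of 4 were lower. Pttg1 (securin), the inhibitor of separase, had 111, 107 and 98.2 CPM in loaded libraries, against 146, 137 and 126 CPM in control libraries (-0.37 ± 0.061, adjusted p = 2.62e-04, edgeR). Espl1, separase itself, had 34.9, 38.2 and 37.7 CPM in loaded libraries, against 47.7, 48.0 and 43.5 CPM in control libraries (-0.33 ± 0.064, adjusted p = 9.14e-04, edgeR). Both the protease and its inhibitor were thus lower, with groups that did not overlap. Ube2c, the ubiquitin-conjugating enzyme of the anaphase-promoting complex, fell by 0.23 ± 0.051 (adjusted p = 0.00251, edgeR). Cdc20, the activator that the checkpoint blocks, stood at 79.8, 80.3 and 87.8 CPM in loaded and 80.8, 80.9 and 79.2 CPM in control libraries and was not called (0.04 ± 0.052).

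Per length, the members spanned a wide range of levels. Ube2c, Pttg1 and Cdk1 were the highest by the authors' FPKM in both groups, with means of 113 ± 1.28, 98.3 ± 6.92 and 86.8 ± 4.42 in loaded and 125 ± 5.27, 119 ± 8.92 and 105 ± 2.24 in control libraries (SD, n = 3 each). Ube2c and Pttg1 did not differ beyond their spread in the control libraries. At the low end stood Anln, at 2.25 ± 0.212 in loaded and 3.24 ± 0.285 in control libraries, and Cdc25c, at 3.26 ± 0.805 in loaded and 3.08 ± 0.22 in control libraries. Smc4 moved most in rank, to position 16 of 39 in loaded libraries, against position 31 in control libraries. FPKM values carry no TMM scaling, so differences between the groups are taken from CPM.

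**Figure D4:**
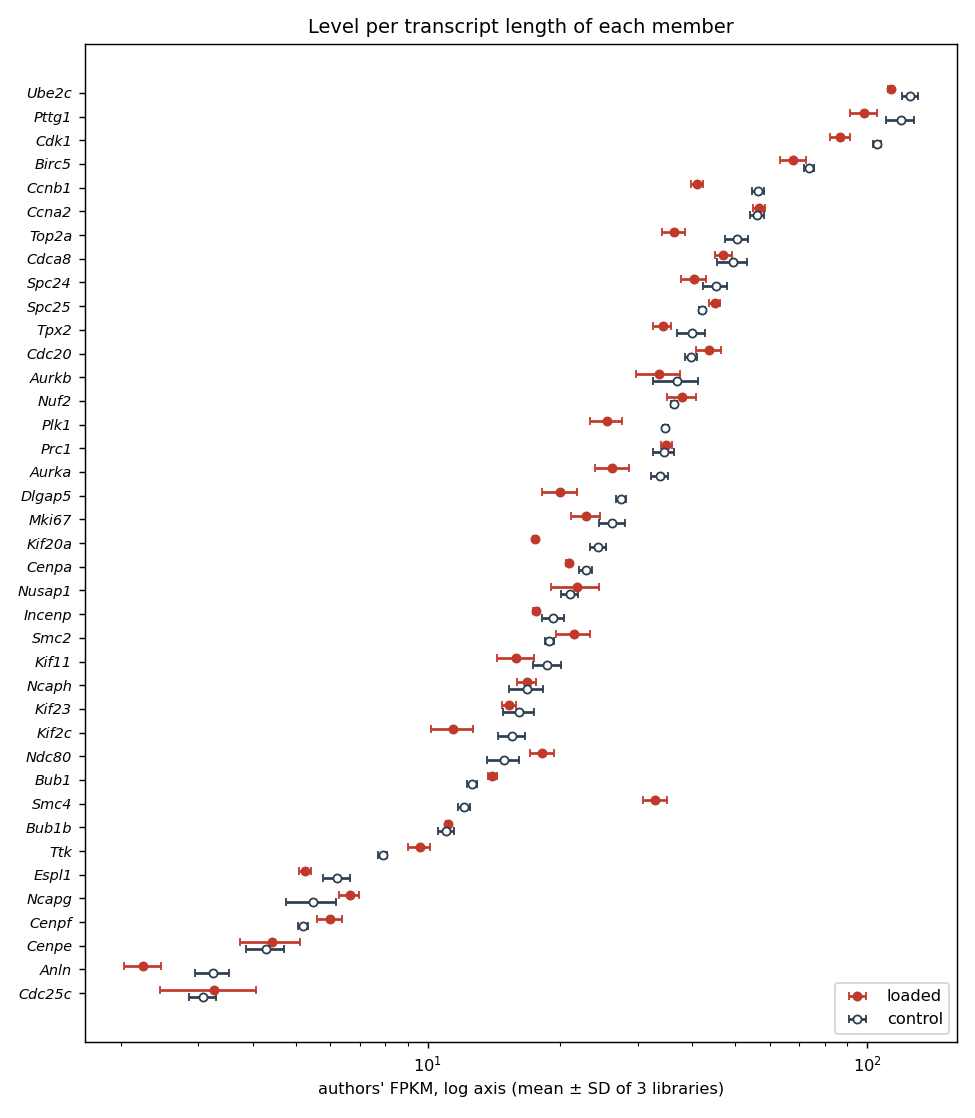
Mean FPKM of each member as the authors gave it (log axis, bars SD of 3 libraries), ordered by the control level, with filled points for loaded and open points for control. Levels run to 125 for Ube2c in control libraries, and Smc4 is at 32.9 in loaded and 12.1 in control libraries.

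Other genes of mitosis, taken from a list of 77 that did not hold the members, likewise had more falls than rises. Of these, 36 were called lower (46.8%) and 9 higher (11.7%), with a median log2 fold change of -0.19. Among all genes tested 18.0% were called lower and 17.9% higher. Aspm, a spindle pole protein, had 29.1, 30.2 and 25.1 CPM in loaded libraries, against 44.3, 43.0 and 43.1 CPM in control libraries (-0.63 ± 0.073, adjusted p = 7.93e-06, edgeR). Sgo2, which protects the cohesin of centromeres, rose, with 36.7, 41.7 and 34.1 CPM in loaded libraries, against 22.1, 22.2 and 22.8 CPM in control libraries (0.75 ± 0.081, adjusted p = 4.07e-06, edgeR). The others that were higher, named after their values were seen, were Knl1, Cenpk, Hmmr and Depdc1, whose calls held in every alternative fitted, and Cenpt, Kif18a, Kif20b and Troap, whose calls did not. Their changes ran from 0.22 for Cenpt to 0.52 for Cenpk. Centromere genes of this list thus went in both directions. Cenph (-0.38 ± 0.066), Cenpl (-0.28 ± 0.064) and Cenpu (-0.75 ± 0.111) were called lower in every alternative fitted, beside the higher Cenpk and Cenpt. Cenpi, Cenpm, Cenpn and Cenpw were not called. Of the core subunits of the anaphase-promoting complex and its enzyme Ube2s, 4 of 15 were lower (26.7%) and 2 higher (13.3%). The smallest adjusted p was that of Anapc1 (-0.36 ± 0.057) among the lower and Anapc16 (0.44 ± 0.088) among the higher. For cohesin, which links the sister chromatids until separase cuts it, 4 of 10 were lower (40.0%) and 3 higher (30.0%). Here the smallest adjusted p was that of Rad21 (-0.23 ± 0.039) among the lower and of the loading factor Mau2 (0.43 ± 0.061) among the higher.

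Genes of DNA replication, which act in S phase, were mostly lower. Of 40 DNA replication genes 29 were lower (72.5%) and none higher, with a median of -0.33, where the members had -0.21. Rrm1, the large subunit of ribonucleotide reductase, had 212, 226 and 207 CPM in loaded libraries, against 292, 297 and 293 CPM in control libraries (-0.45 ± 0.043, adjusted p = 1.01e-06, edgeR). The difference between the replication and the mitosis genes was not tested.

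Of 22 transcription regulators of the cell cycle 5 were called lower (22.7%, beside 18.0% of all genes tested) and 1 higher, the repressor E2f6 (0.37 ± 0.068). The loaded libraries all lay below the control libraries for 13 of the 22 and above them for 1. Among all genes tested 23.9% lay below in this way and 23.9% above. The call with the smallest adjusted p among the lower ones was Tfdp1 (-0.23 ± 0.045), a partner of E2F factors, and the largest fall was that of E2f3 (-0.77), an activator of cell cycle genes whose call was lost without loaded 3, control 1 or control 2 (adjusted p = 0.0501 to 0.088, edgeR). Foxm1, an activator of mitotic genes, named like E2f3 after its value was seen, was 1 of the 13 and averaged 17.2 CPM in loaded and 22.3 CPM in control libraries without a call (adjusted p = 0.114, edgeR). Among D- and E-type cyclins and their kinases 3 of 8 were lower (37.5%) and 2 higher (25.0%), beside 18.0% and 17.9% of all genes. The smallest adjusted p was that of Ccnd3 (-0.52 ± 0.035) among the lower and Ccnd1 (0.62 ± 0.106) among the higher. Among 7 Cdk inhibitors 1 was lower (14.3%), Cdkn2c (-0.35 ± 0.06), and 2 were higher (28.6%). Cdkn1a, the inhibitor p21, was the higher of these in fold, with 19.8, 19.2 and 19.8 CPM in loaded libraries, against 7.38, 7.89 and 8.31 CPM in control libraries (1.32 ± 0.102, adjusted p = 1.16e-07, edgeR).

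**Figure D5:**
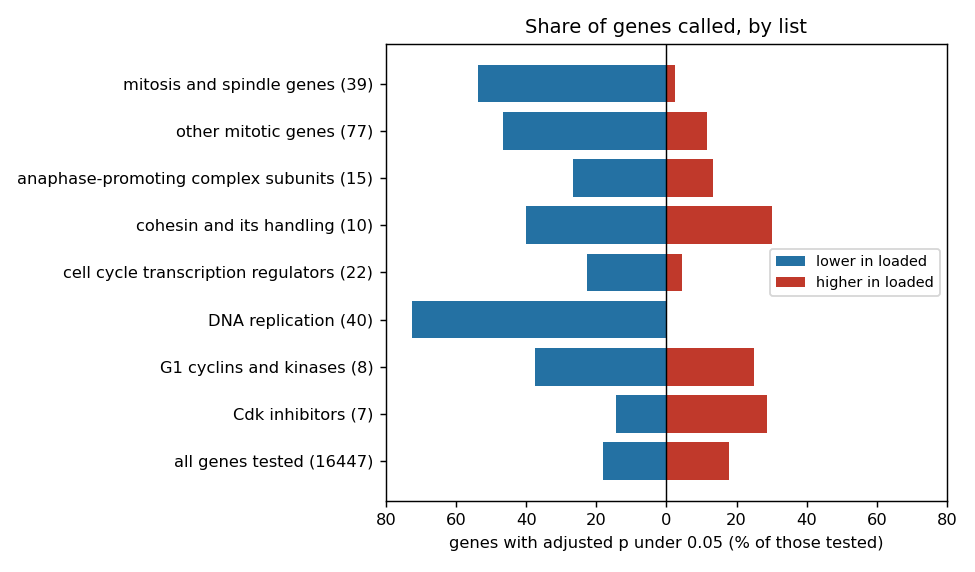
Share of the genes tested that were called at an adjusted p under 0.05, lower (left) and higher (right) in loaded libraries, for the members, the pathway lists and all genes tested, with the number tested in brackets. The members reach 53.8% lower and 2.56% higher, DNA replication genes 72.5% lower, and all genes 18.0% and 17.9%.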

How the data were processed

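RNA-seq of knee cartilage was analysed in 6 libraries. The deposited table holds raw counts per gene, per the file headers, with FPKM values from the authors for each library and the authors' DESeq2 comparison as a false discovery rate and log2 fold change. HISAT2, DESeq2 and the mouse build mm10 appear in the submitters' processing notes, while the identifiers are rat Ensembl ones. For the counting tool, annotation, strand setting and pooling, nothing is stated there. Loaded libraries carry a treatment label; control libraries carry none and were assigned by title and the design's blank group. From 26991 lines 10 spilled pieces of annotation were dropped, leaving 26981 features.

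Counts were tested with edgeR 4.0.16 in R 4.3.3: filterByExpr (16447 genes kept), TMM (factors 0.961 to 1.05), its quasi-likelihood F test (robust, no block for replicate number), and Benjamini-Hochberg adjustment over all genes kept, called at 0.05. SE was obtained from the fold change and the F statistic (log2 value over root F), and CPM uses TMM-scaled totals. FPKM entered no test. A count of 0 allows up to 0.0744 to 0.106 CPM (counting error only). Of 284 listed symbols 277 matched a row, 1 through an older symbol.

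On counts simulated for loaded against control over the genes kept (16163 tested), the test recovered 26% of 50 genes changed 1.25-fold, 58% at 1.5-fold, 80% at 2-fold and 96% at 4-fold, and called 16 of the 15963 unchanged genes tested.

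The members, role groups and lists were chosen with earlier results of these data known. Every member is reported. Values in every library are given for Top2a, Mki67, Cdk1 and Ccnb1, for the 2 members of each role group with the smallest adjusted p, for called members against the main direction and for the largest and smallest change; a few others were added after their values were seen. Of each pathway list the called gene with the smallest adjusted p in each direction is named. Alternatives were DESeq2 1.42.0, limma-voom (limma 3.58.1), RLE, upper-quartile and library-total scaling, the marrow lists left out, no filter, a filter of 1 CPM in at least 3 libraries, a replicate block, omission of each library in turn and a threshold of 0.01. The alternatives for genes outside the members were added after seeing the data.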

Additional observations from a re-analysis of the deposited data

How the results depend on the processing

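The count of members called lower was 18 to 22 and the count of all genes called 4071 to 5974 over all alternatives, against 21 and 5895. Members called higher numbered 1, except 2 with upper-quartile scaling, 5 with library totals, 2 with the filter of at least 1 CPM in 3 libraries and 2 without control 2. The members' median was -0.14 with library totals. That setting leaves out TMM factors of 1.003 to 1.05 in loaded and 0.961 to 0.992 in control libraries. Without these factors log2 fold changes move upward across all genes. Leaving out 1 library at a time gave 19 to 21 members lower, 1 to 2 higher, a median of -0.22 to -0.18 and 4645 to 5614 genes in all. Replicate numbers were shared between the groups, but deviations of same-numbered libraries correlated at only -0.014 to 0.046, so the numbers name libraries and pair nothing. With the replicate block 20 members were lower, 1 higher and 5349 genes called.

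Of 624 values of members under alternatives 583 kept direction and call, 15 lost a call, 9 gained a call and 17 changed sign, all in 7 members without a call. The sign changes were Cdc25c with upper-quartile scaling (0.0035), library totals (0.064) and the 1 CPM filter (0.0005), Spc25 without a filter (-0.0028), and with library totals Cenpe (0.031), Nuf2 (0.048), Prc1 (0.0073) and Nusap1 (0.051). With 1 library left out the ranges were -0.18 to 0.18 for Cdc25c, -0.15 to 0.031 for Cenpe, -0.054 to 0.012 for Nuf2, -0.069 to 0.023 for Nusap1, -0.018 to 0.024 for Spc25 and -0.0080 to 0.066 for Cdc20. Of the 22 called members 19 kept their call in all 15 refitted alternatives. In simulated counts changes near 1.25-fold were mostly missed, but those genes were drawn from all genes kept above a minimum mean count. They were not chosen to match the members. That recovery therefore does not describe the members, whose uncalled changes ran from -0.17 to 0.19 on the log2 scale. An uncalled member may still differ by a change of that size.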
